A study of Mus musculus with 11 samples.

Results

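Bipolar cells are the interneurons that carry signals from the photoreceptors of the retina to its ganglion cells. ON bipolar cells depolarise to light and OFF bipolar cells depolarise to darkness. They are among the last retinal cells to be born in the mouse, and transcription factors of the homeodomain, LIM and basic helix-loop-helix families divide them into subtypes during the early postnatal weeks. The genes of this lineage described here are the regulators Vsx1, Lhx4, Isl1, Bhlhe22, Bhlhe23 and Prdm8, and the subtype markers Cabp5, Prkca and Grik1. They were chosen by name, and all 9 of 9 were found by Ensembl identifier among the 47069 genes of the count files. All 9 passed the filter on low counts that left 18188 genes for testing.

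The libraries were made from dissociated whole retinas of C57BL/6 mice. Brn3b-Kir2.1 mice carry Brn3b-Cre, active in ganglion cells, and a transgene in which the CAG promoter and a floxed stop precede human Kir2.1 fused to eYFP, so that Cre-positive cells express this potassium channel. There were 2 wild-type and 3 Kir2.1 libraries at postnatal day 4 (P4) and 3 of each genotype at P8. The labels disagree with each other: the age field gives P8 and the protocol P11 for the later age, the control is wild type in one field and Brn3b-Cre in the protocol, and the source field names ganglion cells although no sorting step is described. Field values are used throughout. Sex is not given, and nothing in the labels says whether replicates came from separate animals, so p-values measure the spread between these libraries, which may be technical.

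Gene counts ran from 9362215 to 12478838 per library. Values per library are CPM, gene counts divided by the TMM-scaled library size and multiplied up to a common total. The libraries of a group differed in composition, which was read from marker lists. Among the P4 libraries, wild-type replicate 2 had the highest sum over 12 rod genes (1350 CPM, against 265 to 837 CPM) and the lowest sum over 12 genes of dividing cells (1147 CPM, against 2532 to 3247 CPM). Among the wild-type P8 libraries replicates 1, 2 and 3 had rod sums of 896, 3507 and 7609 CPM, and it was 7101 to 7355 CPM in the Kir2.1 P8 libraries. Over 12 amacrine genes, wild-type P8 replicates 1, 2 and 3 summed to 4254, 3080 and 1724 CPM. In Kir2.1 P8 replicate 2, 31325 genes had a count, against 22609 to 24591 in the other libraries. In bulk tissue, fewer cells of a type and less RNA per cell cannot be told apart.

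The regulators sit at separate places in the genome (GRCm38, GENCODE M21 gene models). Vsx1, a homeodomain factor of cone bipolar cells, lies at chr2:150680702-150689360, and Bhlhe23, a basic helix-loop-helix factor required for rod bipolar maturation, lies at chr2:180774381-180776900. Lhx4, a LIM-homeodomain factor of cone bipolar cells, is at chr1:155698031-155751684. Isl1, a LIM-homeodomain factor of ON bipolar cells that also marks ganglion cells and cholinergic amacrine cells, is at chr13:116298281-116309689. Bhlhe22, which acts in OFF cone bipolar and amacrine development, is at chr3:18054174-18057517, and Prdm8, a PR-domain factor needed for rod bipolar cells, is at chr5:98167198-98188991. Among the markers, Cabp5, a calcium-binding protein of rod bipolar cells and some cone bipolar types, is at chr7:13398132-13408887. Prkca, the protein kinase C alpha that marks rod bipolar cells, is at chr11:107933387-108343928. Grik1, a kainate receptor subunit used by OFF bipolar cells, is at chr16:87895900-88290265. In Prdm8, 1411 exonic bases are shared with the antisense gene A730035I17Rik. The strand setting of the counting is not given in the sources used here, so reads of both genes cannot be told apart there. Prkca shares 30 exonic bases with Apoh on the other strand. Bhlhe23 shares 144 exonic bases with Gm14343 on its own strand, where strand would not separate the reads.

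Promoter sequence was available for 7 of the 9 genes in the RefSeq table used here (GRCm38.p6), and it was searched for 4 short words on both strands in the 250 bases before each start site. TAATCC, bound by Otx2 and Crx, occurred before 2 of the 7 genes, Cabp5 and Isl1, and in 6.25% of 32851 promoters of that length. The E-box CAGCTG occurred before 3 of the 7 (Vsx1, Isl1 and Prdm8) and in 13% of all promoters. The homeodomain word TAATTA and the E-box CATATG occurred before 0 of the 7, and in 4.84% and 3.46% of all promoters. No words overlapped in these windows. RefSeq and GENCODE place some starts differently: the windows of Lhx4 and Prdm8, and the words found for Vsx1 and Prdm8, lie inside the gene as GENCODE draws it. The windows of Cabp5 and Isl1 are shown because they hold TAATCC, and that of Bhlhe23 because its transcript had the largest fitted age change among the 9 genes in Kir2.1. Each is written 5′ to 3′ on the gene's strand, with the matched words in capitals, and ends before the first base that GENCODE places in the gene.
Cabp5 (chr7:13397905-13398131, plus strand): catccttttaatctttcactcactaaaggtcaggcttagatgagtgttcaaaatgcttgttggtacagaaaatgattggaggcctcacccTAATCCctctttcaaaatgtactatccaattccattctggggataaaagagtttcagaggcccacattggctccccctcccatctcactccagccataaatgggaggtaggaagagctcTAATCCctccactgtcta
Isl1 (chr13:116309690-116309938, minus strand): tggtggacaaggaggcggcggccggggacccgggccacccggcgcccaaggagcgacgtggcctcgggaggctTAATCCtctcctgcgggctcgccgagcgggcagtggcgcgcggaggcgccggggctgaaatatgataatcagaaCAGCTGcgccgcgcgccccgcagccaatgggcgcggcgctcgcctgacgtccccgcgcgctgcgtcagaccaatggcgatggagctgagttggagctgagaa
Bhlhe23 (chr2:180776901-180777150, minus strand): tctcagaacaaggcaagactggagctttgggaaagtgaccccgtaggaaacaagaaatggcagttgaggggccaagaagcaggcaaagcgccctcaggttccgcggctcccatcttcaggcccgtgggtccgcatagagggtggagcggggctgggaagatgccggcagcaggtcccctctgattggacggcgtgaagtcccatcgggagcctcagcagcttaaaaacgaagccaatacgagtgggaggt
In Cabp5 the word starts 160 and 41 bases before the RefSeq start, and in Isl1 TAATCC starts 177 and CAGCTG 103 bases before it. A match is a description of these letters and not evidence of binding.

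The first comparison asked how these genes changed between P4 and P8 in Kir2.1 retinas. Of the 9 genes, 6 were higher at P8 (Vsx1, Isl1, Bhlhe23, Cabp5, Prkca and Grik1) and 0 lower at an edgeR adjusted p under 0.05. Over all genes tested 16.7% were called, 7.93% higher and 8.73% lower. The median log2 fold change was 2.62 over the 9 genes and 0.0046 over all genes. In 8 of the 9 genes every Kir2.1 P8 library lay above every Kir2.1 P4 library, as in 19.4% of all genes. The exception was Bhlhe22. An exact two-sided permutation test of 3 libraries against 3, or of 2 against 3, cannot give a p below 0.1.

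Vsx1 was nearly absent from the Kir2.1 retina at P4 and abundant at P8. Its level was 0.464, 1.07 and 0.437 CPM in Kir2.1 P4 replicates 1 to 3, which is 5, 14 and 5 counts, and 68.0, 86.4 and 59.9 CPM in the P8 replicates. The log2 fold change was 6.70 ± 0.98 (SE, edgeR adjusted p = 0.000887). Bhlhe23 had 0, 4 and 0 counts in the Kir2.1 P4 libraries and 235, 172 and 149 counts at P8, or 19.4, 17.9 and 13.3 CPM. Its fitted log2 fold change of 7.10 ± 1.15 (edgeR adjusted p = 0.00175) depends in size on the prior count, because 2 of the 3 P4 libraries were at 0. All P8 libraries were far above all P4 libraries for both genes.

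Isl1 was present at P4 and several times higher at P8. In Kir2.1 it was at 28.9, 10.6 and 38.9 CPM at P4 and at 280, 269 and 264 CPM at P8, a log2 fold change of 3.38 ± 0.40 (edgeR adjusted p = 0.000256). The P8 libraries were close together (271 ± 7.85 CPM, SD, n = 3), and the lowest P4 value was that of replicate 2. Lhx4 was at 52.3, 77.5 and 54.2 CPM at P4 and at 131, 140 and 107 CPM at P8. The groups did not overlap, but the log2 fold change of 1.04 ± 0.34 did not pass (edgeR adjusted p = 0.0582). It passed with DESeq2 (1.04, adjusted p = 0.0148) and with voom and quality weights in limma (1.04, adjusted p = 0.00772).

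Prdm8 and Bhlhe22 were already expressed at P4 at levels near those at P8. Prdm8 was at 113, 113 and 132 CPM at P4 and at 170, 181 and 148 CPM at P8 in Kir2.1 (0.48 ± 0.17 on the log2 scale, edgeR adjusted p = 0.0805). This fold change passed with voom and quality weights in limma (0.45, adjusted p = 0.0309). Bhlhe22 was at 65.5, 75.6 and 75.0 CPM at P4 and at 75.3, 59.2 and 51.8 CPM at P8 (-0.21 ± 0.14, edgeR adjusted p = 0.353). Its groups overlapped, and the difference was within the spread of the P8 libraries.

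The 3 subtype markers rose together in Kir2.1. Prkca went from 99.4, 95.9 and 103 CPM to 297, 307 and 298 CPM, with SDs of 3.51 CPM at P4 and 5.95 CPM at P8 (n = 3 each). This was a log2 fold change of 1.60 ± 0.21 (edgeR adjusted p = 0.000499). Cabp5 went from 3.71, 7.51 and 4.02 CPM to 37.0, 32.4 and 25.0 CPM (2.62 ± 0.53, edgeR adjusted p = 0.0057). Grik1, of OFF cells, went from 8.82, 8.05 and 9.08 CPM to 46.7, 73.1 and 45.0 CPM (2.67 ± 0.40, edgeR adjusted p = 0.0011). For each of the 3 markers the lowest P8 library was well above the highest P4 library. Markers of other cells moved between the same groups: 12 of 12 rod genes were called higher and 12 of 12 genes of dividing cells lower at P8, with median log2 fold changes of 3.57 and -4.17. Of 14 ganglion cell markers, 9 were called lower and 1 higher, with a median of -1.57. Their part in these results was not tested.

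**Figure D1:**
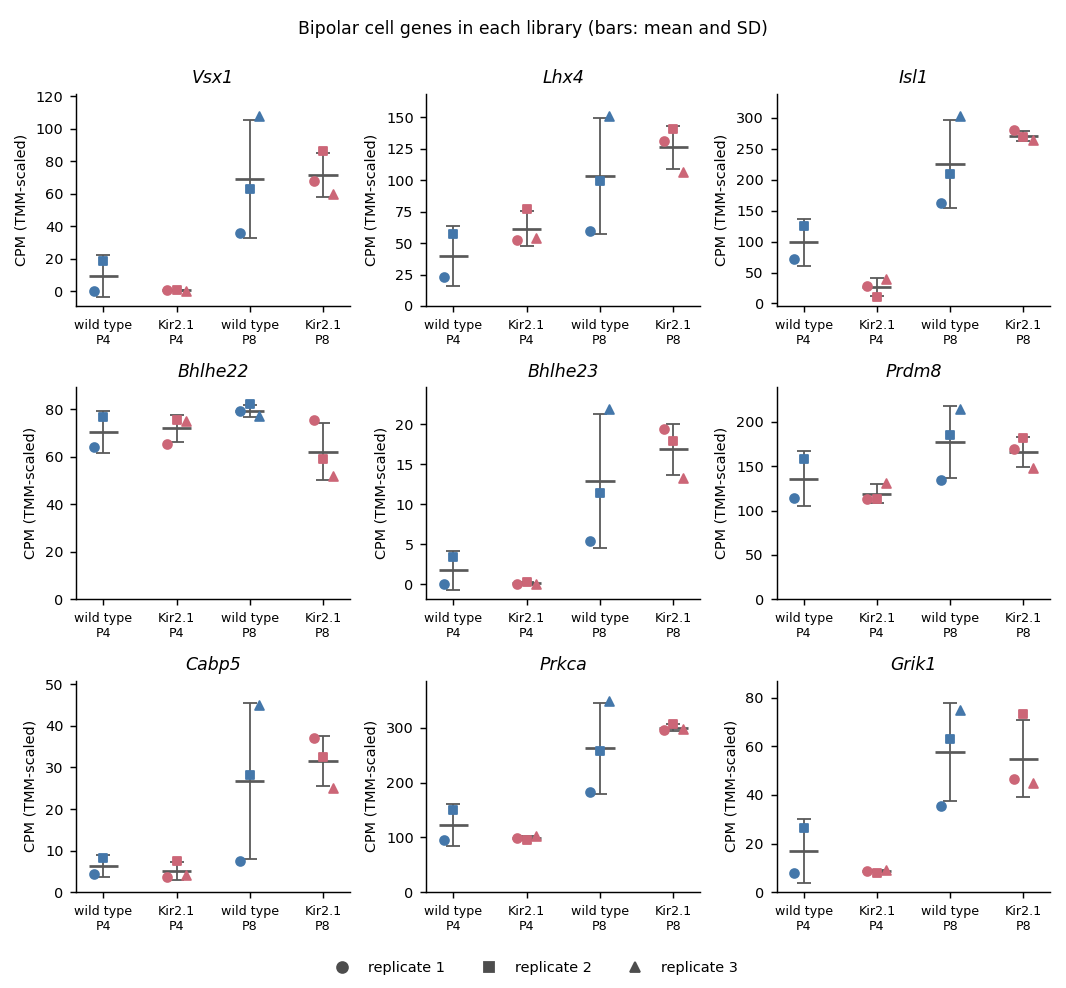
TMM-scaled CPM (linear axis) of each gene in the 4 groups. Each point is a library, its shape the replicate number, and the bars are the group mean and SD. Vsx1, Lhx4, Isl1, Bhlhe23, Prkca and Grik1 separate the ages in both genotypes, and Bhlhe22 stays between 51.8 and 82.0 CPM in all 11 libraries.

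The same comparison in wild type had 2 P4 libraries that differed from each other. A fit without either of them leaves 1 wild-type P4 library, and its p-values assume that this library varies as the other groups do. All 9 fold changes were positive, with a median of 1.37, against 0.0265 over all genes. Of the 9 genes, 2 were called higher, Prkca and Grik1, and 0 lower, where 4.39% of all genes were called, 0.803% higher and 3.58% lower. In 7 genes the P8 values lay above both P4 values, as in 14.2% of all genes; the exceptions were Prdm8 and Cabp5. Between the same groups 12 of 12 genes of dividing cells and 10 of 14 ganglion cell markers were called lower at P8, with medians of -4.02 and -2.51. The 12 rod genes were 12 of 12 positive with a median of 2.24 and 0 called, and the part of these cells in the results was not tested. Fewer calls in wild type than in Kir2.1 do not show a different change, since no gene passed the test of that difference, given below as the interaction.

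Prkca was at 94.7 and 149 CPM at P4 and at 183, 257 and 349 CPM at P8 in wild type (1.11 ± 0.24 on the log2 scale, edgeR adjusted p = 0.0206). Grik1 was at 7.77 and 26.3 CPM at P4 and at 35.6, 62.8 and 74.9 CPM at P8 (1.76 ± 0.44, edgeR adjusted p = 0.0432). Without wild-type P4 replicate 2 the log2 fold changes were 1.48 for Prkca and 2.89 for Grik1. Neither call held when wild-type P4 replicate 1 was left out (0.82 for Prkca and 1.13 for Grik1). Both were also lost without wild-type P8 replicate 2, with edgeR adjusted p = 0.0536 and 0.106, and Grik1 was lost without wild-type P8 replicate 3 (edgeR adjusted p = 0.0789). Fitting only the wild-type libraries, all kept, also ended both calls, with edgeR adjusted p = 0.208 for Prkca (1.10) and 0.241 for Grik1 (1.75). Cabp5 was at 4.44 and 8.19 CPM at P4 and at 7.41, 28.1 and 44.9 CPM at P8 (2.09 ± 0.60, edgeR adjusted p = 0.0767). The P8 value of replicate 1 fell between the P4 values, and without that library the change was called (2.51, edgeR adjusted p = 0.00454). DESeq2 called it with all libraries (2.09, adjusted p = 0.00307).

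For Vsx1 and Bhlhe23, the size of the age change in wild type rested on P4 replicate 2. Vsx1 had 4 counts in wild-type P4 replicate 1 and 222 in replicate 2, or 0.341 and 18.7 CPM, and it reached 35.9, 62.8 and 108 CPM at P8. The log2 fold change was 2.85 ± 0.85 with all libraries (edgeR adjusted p = 0.0868). It was 7.62 without replicate 2 and 1.88 without replicate 1, each against a lone P4 library. With both P4 libraries kept, it was called by voom with quality weights in limma (4.50, adjusted p = 0.0316) and without wild-type P8 replicate 1 (3.15, edgeR adjusted p = 0.0428). Bhlhe23 had 0 and 41 counts at P4, and 5.40, 11.4 and 21.9 CPM at P8 (2.89 ± 0.95, edgeR adjusted p = 0.113). Without wild-type P4 replicate 1 its log2 fold change was 1.89. Without wild-type P4 replicate 2 Bhlhe23 was at least 50.4-fold higher at P8, computed against a floor of 3 counts in the remaining P4 library. In the other 4 P4 libraries, those of Kir2.1 included, Vsx1 had at most 14 counts and Bhlhe23 at most 4.

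The LIM-homeodomain genes did not pass the edgeR test in wild type with all libraries. Lhx4 was at 23.1 and 56.8 CPM at P4 and at 59.3, 99.3 and 151 CPM at P8 (1.37 ± 0.40, edgeR adjusted p = 0.0806), and was called without wild-type P8 replicate 1 (1.63, edgeR adjusted p = 0.0161). Lhx4 was at 2.16 without wild-type P4 replicate 2 and at 0.86 without replicate 1, each against a lone P4 library. It was not called without wild-type P8 replicate 3 (0.99, edgeR adjusted p = 0.153). Isl1 was at 72.0 and 125 CPM at P4 and at 163, 210 and 302 CPM at P8 (1.19 ± 0.42, edgeR adjusted p = 0.139). The ages did not overlap for either gene. With all libraries DESeq2 called both Lhx4 (1.37, adjusted p = 0.00629) and Isl1 (1.20, adjusted p = 0.0337), and voom with quality weights in limma called Lhx4 (1.40, adjusted p = 0.0418). Prdm8 was at 114 and 158 CPM at P4 and at 134, 185 and 214 CPM at P8 (0.39 ± 0.20, edgeR adjusted p = 0.308). Bhlhe22 was at 64.0 and 76.6 CPM at P4 and at 79.1, 82.0 and 77.0 CPM at P8 (0.18 ± 0.16, edgeR adjusted p = 0.611). Over the fits without 1 library the age change ran from 0.84 to 1.65 for Isl1, from 0.17 to 0.64 for Prdm8 and from 0.048 to 0.31 for Bhlhe22, lowest without wild-type P4 replicate 1 and highest without replicate 2. The number of the 9 genes called depended on the libraries fitted. Leaving out wild-type P4 replicate 1 or P8 replicate 2 gave 0, leaving out wild-type P4 replicate 2 or P8 replicate 1 gave 5, and leaving out wild-type P8 replicate 3 gave 1. The share of all genes called moved as well: it was 0.823% and 6.75% without P4 replicates 1 and 2, and 7.19%, 2.97% and 4.53% without P8 replicates 1, 2 and 3.

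**Figure D2:**
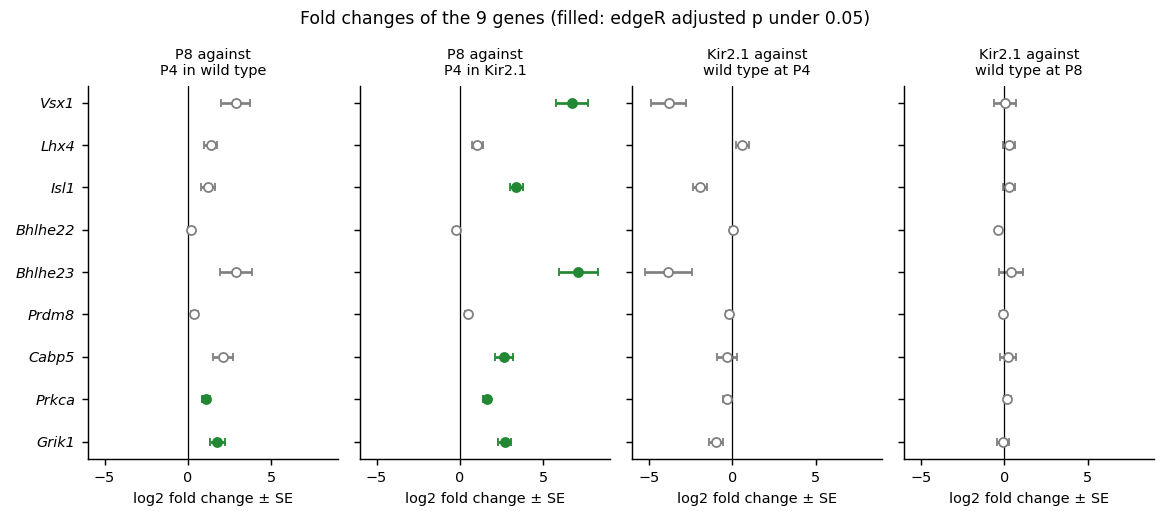
Log2 fold changes with their SE (horizontal bars) for the 9 genes in the 4 comparisons; filled points passed an edgeR adjusted p of 0.05. Of the filled points, 6 are in the age comparison of Kir2.1, 2 in that of wild type and 0 in the genotype comparisons.

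The comparison of genotypes asks which transcripts differ in retinas whose ganglion cells express Kir2.1. At P4 no gene was called (0 of 18188, 0% with edgeR), and 1314 genes (7.22%) had an unadjusted p under 0.05. Of the 9 genes, 7 had a negative fold change in Kir2.1, and 4 (Vsx1, Isl1, Bhlhe23 and Grik1) had an unadjusted p under 0.05. For Vsx1, Bhlhe23 and Grik1, wild-type replicate 1 was no higher than any Kir2.1 library. For Isl1 both wild-type libraries were higher than every Kir2.1 library.

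Isl1 was lower in every Kir2.1 P4 library than in either wild-type one: 28.9, 10.6 and 38.9 CPM against 72.0 and 125 CPM. The groups did not overlap, as in 14.4% of all genes in that direction. The log2 fold change of -1.92 ± 0.41 (unadjusted p = 0.000512, edgeR adjusted p = 0.583, exact two-sided permutation p = 0.1) kept its direction when each P4 library was left out, from -2.33 to -1.46. DESeq2 called it (-1.91, adjusted p = 0.00411). The summed level of 14 ganglion cell markers was 1839 and 1208 CPM for wild type at P4 and 969, 411 and 1005 CPM for Kir2.1 replicates 1 to 3, and 14 of 14 had negative fold changes, with 0 called and a median of -1.15. Kir2.1 P4 replicate 2 was lowest in both Isl1 and this sum. None of the 14 markers was at 0 in a P4 library, and their part in the Isl1 result was not tested.

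For Vsx1, Bhlhe23 and Grik1, the P4 difference followed wild-type replicate 2. The Kir2.1 values of Vsx1 (0.464, 1.07 and 0.437 CPM) were above the 0.341 CPM of wild-type replicate 1 and far below the 18.7 CPM of replicate 2. The log2 fold change was -3.80 ± 1.06 (edgeR adjusted p = 0.677), and 0.96 without wild-type replicate 2. With replicate 2 as the only wild-type P4 library it was -4.78 and called (edgeR adjusted p = 0.0145, with the spread taken from the other groups). Bhlhe23 went from -3.83 ± 1.39 to 3.50 without wild-type replicate 2, on 4 counts in all that remained, and Grik1 from -0.98 ± 0.43 to 0.16 (edgeR adjusted p = 0.677 for both with all libraries). Without that library Cabp5 (-0.30 ± 0.59) went to 0.21, Prkca (-0.29 ± 0.23) to 0.073 and Prdm8 (-0.19 ± 0.19) to 0.066. Bhlhe22 was at 0.035 ± 0.16, and at -0.093 without wild-type replicate 1.

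Lhx4 had a positive difference at P4 (0.62 ± 0.39, edgeR adjusted p = 0.737), with 0.11 when wild-type replicate 1 was left out and 1.41 when wild-type replicate 2 was. The 2 wild-type libraries, at 23.1 and 56.8 CPM, lay on both sides of the lowest Kir2.1 value of 52.3 CPM. Of the 9 genes, 8 were highest among the 5 P4 libraries in wild-type replicate 2, as were 23.3% of all genes, and Lhx4 was the exception. That library also had the rod and dividing cell sums given above, and their part in these values was not tested.

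**Figure D3:**
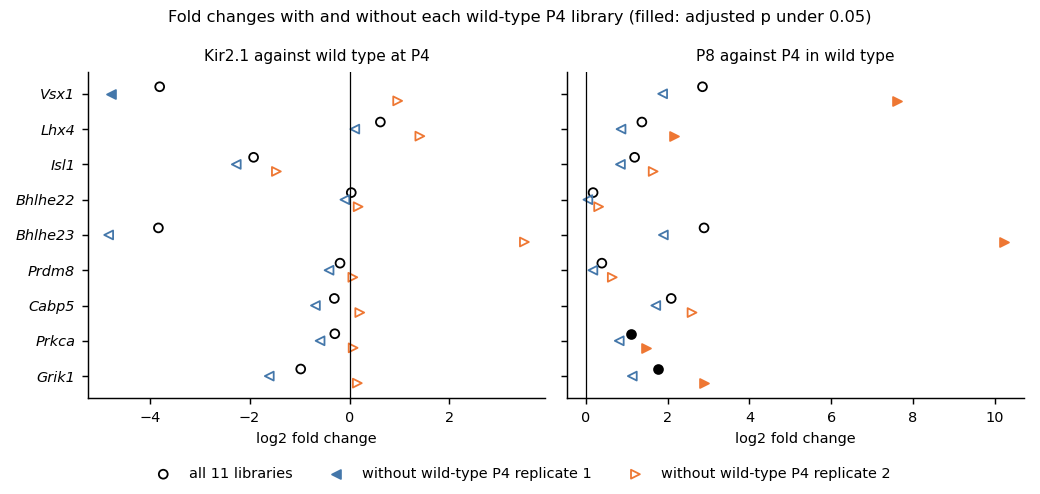
Log2 fold changes with all 11 libraries (circles) and without wild-type P4 replicate 1 or 2 (triangles, each a fit with 1 wild-type P4 library), for genotype at P4 (left) and age in wild type (right); filled symbols have an edgeR adjusted p under 0.05. On the left, 6 genes change from negative to positive without replicate 2 (Vsx1, Bhlhe23, Prdm8, Cabp5, Prkca and Grik1), and Isl1 stays negative.

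At P8, again, no gene was called between genotypes (0 of 18188, 0% with edgeR), and 1240 genes (6.82%) had an unadjusted p under 0.05, of which 1 was among the 9. This was Bhlhe22, at 79.1, 82.0 and 77.0 CPM for wild type and at 75.3, 59.2 and 51.8 CPM for Kir2.1. Every Kir2.1 library was below every wild-type library, as in 5.11% of all genes. The log2 fold change of -0.35 ± 0.14 (unadjusted p = 0.0279, edgeR adjusted p = 0.70) ran from -0.52 to -0.24 when single libraries were left out. The 12 amacrine cell markers, of a cell class that also expresses Bhlhe22, were 12 of 12 negative in Kir2.1 at P8 with 0 called and a median of -0.60. Their sum ran from 1724 to 4254 CPM for wild type and from 1397 to 2328 CPM for Kir2.1, with none at 0, and their part in the Bhlhe22 value was not tested.

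The other regulators overlapped between genotypes at P8. Vsx1 was at 35.9, 62.8 and 108 CPM for wild type and at 68.0, 86.4 and 59.9 CPM for Kir2.1 (0.049 ± 0.66, edgeR adjusted p = 0.992). For Isl1 the difference was 0.27 ± 0.36 (edgeR adjusted p = 0.864), and for Lhx4 it was 0.29 ± 0.34 (edgeR adjusted p = 0.837). Bhlhe23 was at 0.38 ± 0.71 and Prdm8 at -0.095 ± 0.17. Among the markers, Cabp5 was at 0.23 ± 0.48, Prkca at 0.19 ± 0.21 and Grik1 at -0.074 ± 0.36. For all 8 genes other than Bhlhe22 the Kir2.1 values lay inside the range of the wild-type values. The spread was larger in wild type: the SD of Prkca was 83.1 CPM there and 5.95 CPM among Kir2.1 libraries, and that of Isl1 was 71.1 and 7.85 CPM (n = 3 each).

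Of the 9 genes, 8 were lowest among the 6 P8 libraries in wild-type replicate 1 (26.9% of all genes) and 8 were highest in wild-type replicate 3 (16.1%), with Bhlhe22 the exception each time. The fold changes of Vsx1, Cabp5 and Prkca turned negative when wild-type P8 replicate 1 was left out (-0.26, -0.22 and -0.015). Leaving out replicate 2 of either genotype also gave a negative Vsx1 value, -0.014 for wild type and -0.11 for Kir2.1. Those of Grik1 and Prdm8 turned positive when wild-type P8 replicate 3 was left out (0.16 and 0.061), and Grik1 was also positive without Kir2.1 P8 replicate 1 (0.032) or 3 (0.051). Without wild-type P8 replicate 3, 219 genes (1.21%) were called and 0 of the 9, with Lhx4 at 0.67, Isl1 at 0.54 and Bhlhe23 at 1.01. Without wild-type P8 replicate 1 these 3 genes were at 0.0069, 0.0785 and 0.0157. These libraries held the lowest and the highest wild-type rod sums at P8, and the part of composition in these values was not tested.

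**Figure D4:**
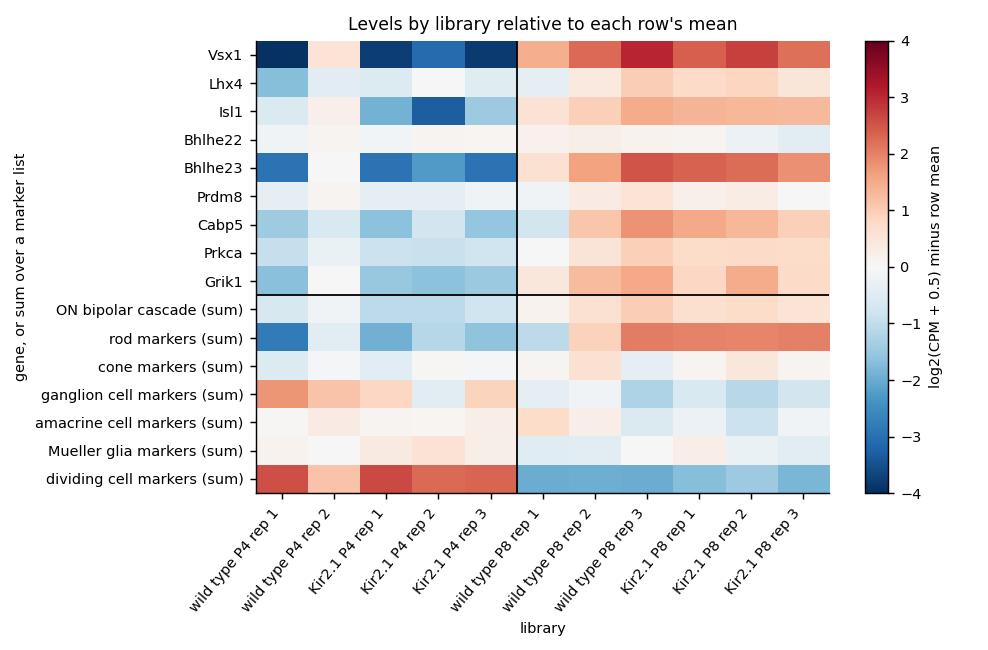
Level of each gene (above the line) and summed level of each marker list (below it) in the 11 libraries, as log2(CPM + 0.5) minus the row's mean; red is higher and blue lower. Wild-type P4 replicate 2 is the highest of the P4 libraries for most of the genes and the lowest for dividing cells, and wild-type P8 replicate 1 is the lowest of the P8 libraries for rods.

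The authors' deposited tables of genotype comparisons called some of these genes. At P4 the authors' deposited table called 2 of the 8 genes with an adjusted p, against 2.27% of all genes in it: Vsx1 (log2 fold change -3.68, adjusted p = 0.00573) and Grik1 (-1.51, adjusted p = 0.005). Isl1 was at -1.62 in the authors' deposited table (adjusted p = 0.569). Lhx4 was at -0.15 in the authors' deposited table (adjusted p = 0.91), opposite in sign to the edgeR value given above, and neither passed. Of the others, the authors' deposited table had Bhlhe22 at -0.10, Prdm8 at -0.066, Cabp5 at -0.46 and Prkca at -0.36 at P4, with adjusted p from 0.526 to 0.966. Bhlhe23 was at -6.72 ± 4.34 (SE) in the authors' deposited table for P4, with no adjusted p. At P8 the authors' deposited table called 3 of 9, against 7.27% of all genes: Lhx4 (0.68, adjusted p = 0.0433), Isl1 (0.55, adjusted p = 0.0195) and Bhlhe23 (1.13, adjusted p = 0.0401). In the authors' deposited table for P8, Vsx1 was at 0.55, Prkca at 0.43, Cabp5 at 0.82, Bhlhe22 at -0.40, Grik1 at 0.099 and Prdm8 at 0.046, with adjusted p from 0.131 to 0.948. The files do not state which libraries entered these tables. For 8 of the 9 genes the P8 values in the authors' deposited table lay within 0.058 of the edgeR fold changes without wild-type P8 replicate 3. For Bhlhe23 the difference was 0.12. No other fit was compared in this way, and whether that library entered the authors' deposited table was not tested.

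The difference between the genotype effects at P8 and at P4 was tested as an interaction, which is also the difference between the age changes of the genotypes. No gene passed (0 of 18188, 0% with edgeR; 562 genes, 3.09%, had an unadjusted p under 0.05), and 3 of the 9 had an unadjusted p under 0.05. These were Isl1 (2.19 ± 0.55, unadjusted p = 0.00171), Vsx1 (3.85 ± 1.27, unadjusted p = 0.0102) and Bhlhe23 (4.21 ± 1.58, unadjusted p = 0.0204), each with an edgeR adjusted p of 0.9997. Without wild-type P4 replicate 2 the values were 1.73 for Isl1, -0.92 for Vsx1 and -3.12 for Bhlhe23.

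Levels between genes were compared per kilobase of exon. In Kir2.1 P8 libraries the order began with Isl1 (68.4 ± 1.98 CPM per kb, SD, n = 3), followed by Prdm8 (34.3 ± 3.47) and Prkca (33.4 ± 0.66), which did not differ beyond their spread. Lhx4 (22.0 ± 3.02), Vsx1 (18.8 ± 3.58) and Bhlhe22 (18.6 ± 3.60) came next and overlapped within 1 SD of each other. Cabp5 (12.5 ± 2.40 CPM per kb), Grik1 (8.18 ± 2.35) and Bhlhe23 (6.70 ± 1.27) were lowest. In Kir2.1 P4 libraries the order was led by Prdm8 (24.5 ± 2.25 CPM per kb) and Bhlhe22 (21.5 ± 1.71), with Isl1 in the fifth place (6.59 ± 3.62). Vsx1 (0.174 ± 0.0948 CPM per kb) and Bhlhe23 (0.0405 ± 0.0702) were the lowest there. In wild type at P4, Prdm8 (28.0 ± 6.38 CPM per kb, n = 2), Isl1 (24.9 ± 9.47) and Bhlhe22 (21.0 ± 2.66) had the highest means and were not separated beyond their spread. At P8 Isl1 had the highest mean (56.8 ± 17.9 CPM per kb, n = 3).

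Across the 11 libraries the profiles of some genes were close. Likeness was measured as the root-mean-square difference between log2 profiles, each centred on its mean, over 15990 genes with a mean of at least 1 CPM; all libraries share the 2 ages, so it is a description. Vsx1 and Bhlhe23 were each other's nearest gene (0.385), and Lrtm1 was the second nearest of both (0.588 and 0.463). Prkca was nearest to Elovl4 (0.126), a fatty acid elongase of photoreceptors, and Gnb5 (0.13), the G protein beta subunit that pairs with RGS proteins. Isl1 was nearest to Trnp1 (0.421) and Car10 (0.44), Lhx4 to Slc1a7 (0.244), Cabp5 to Uckl1os (0.203) and Rgs9bp (0.287), and Grik1 to Zfp804b (0.21) and Hr (0.26). Bhlhe22 and Prdm8, which varied least of the 9 (SDs of 0.21 and 0.32 on the log2 scale), were nearest to Actr3 (0.107) and D6Wsu163e (0.118). Of the 36 pairs among the 9, Bhlhe22 and Prdm8 had the smallest value (0.334), and Vsx1 and Bhlhe22 the largest (3.11).

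Other genes of the lineage were read from 3 lists. ON bipolar cells sense glutamate through mGluR6 (Grm6), which keeps the cation channel Trpm1 closed in the dark. Of 12 genes of this cascade, 10 were called higher at P8 and 0 lower in Kir2.1, with a median log2 fold change of 2.51, where 7.93% of all genes were called higher and 8.73% lower. Lrit3 and Rgs7 were not called. Grm6 had 1, 6 and 2 counts in the Kir2.1 P4 libraries and 1868, 2333 and 1729 at P8 (9.44, edgeR adjusted p = 0.00153). Trpm1 had 2, 6 and 8 counts at P4 and 2398, 2175 and 1926 at P8 (8.74, edgeR adjusted p = 0.000645). Pcp2, a G protein modulator of ON bipolar cells, rose by 5.20 (edgeR adjusted p = 0.00326).

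In wild type 1 of the 12 cascade genes was called higher, Gnb5 (1.10, edgeR adjusted p = 0.0338), and 0 lower, with 12 of 12 positive and a median of 1.70, where 0.803% of all genes were called higher and 3.58% lower. Grm6 had 0 counts in wild-type P4 replicate 1 and 678 in replicate 2, and 823, 2080 and 3414 at P8 (2.62, edgeR adjusted p = 0.202). Without replicate 2 it was at least 689-fold higher at P8, computed against a floor of 3 counts in the lone P4 library. Trpm1 had 20 and 566 counts at P4 and 607, 1735 and 4046 at P8 (2.84, edgeR adjusted p = 0.114). It was called without wild-type P8 replicate 1 (3.25, edgeR adjusted p = 0.041), and against the lone P4 library left without replicate 2 (6.69, edgeR adjusted p = 0.00208). Like Vsx1 and Bhlhe23, both genes were at low counts in 4 of the 5 P4 libraries, with wild-type replicate 2 the exception. The Gnb5 call was lost without wild-type P4 replicate 1, P8 replicate 2 or P8 replicate 3 (edgeR adjusted p = 0.471, 0.0822 and 0.0671). Of the cascade genes, 8 were called when wild-type P8 replicate 1 was left out, 5 when P4 replicate 2 was, which leaves 1 P4 library, and 0 when P8 replicate 2 or 3 was. Of all genes 7.19%, 6.75%, 2.97% and 4.53% were called in these fits.

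Of 14 further bipolar regulators, 6 were called higher and 2 lower at P8 in Kir2.1, with a median of 0.73, against the 7.93% and 8.73% of all genes. The 8 calls fell to 4 without Kir2.1 P4 replicate 1 and to 5 without P4 replicate 3 or P8 replicate 2, and the share of all genes called fell from 16.7% to 9.76%, 11.5% and 11.2% in these fits. Lhx3, a LIM-homeodomain factor of bipolar subtypes, rose by 5.41 (edgeR adjusted p = 0.000387). Sebox had at most 3 counts in each Kir2.1 P4 library and was at least 9.88-fold higher at P8 (edgeR adjusted p = 0.00941). The median is the same with Sebox at that bound. Irx5, an Iroquois homeodomain factor and one of the genes called lower, fell by 2.18 (edgeR adjusted p = 0.00162). Otx2, which specifies photoreceptors and bipolar cells, was at 0.87 (edgeR adjusted p = 0.158).

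In wild type, where 0.803% of all genes were called higher and 3.58% lower, 2 of the 14 were called higher at P8, Lhx3 (2.86, edgeR adjusted p = 0.0263) and Neurod4 (1.03, edgeR adjusted p = 0.0449). The 3 called lower included Irx5 (-1.58, edgeR adjusted p = 0.031) and Ebf1 (-1.18, edgeR adjusted p = 0.0211). Neurod4 and Ebf1 were named after their values were seen. Lhx3 was at 4.78 against the lone P4 library left without replicate 2. Otx2 was at 0.86 (edgeR adjusted p = 0.327), at 0.16 without wild-type P8 replicate 3, and called without P8 replicate 1 (1.22, edgeR adjusted p = 0.0311). Without wild-type P4 replicate 1, 0 of the 14 were called, without P8 replicate 1, 9, and without P8 replicate 2, 3, where 0.823%, 7.19% and 2.97% of all genes were called. The calls of Irx5 and Ebf1 were lost when wild-type P8 replicate 2 was left out (edgeR adjusted p = 0.105 and 0.0748). Neurod4 was not called once wild-type P4 replicate 2 (edgeR adjusted p = 0.113) or P8 replicate 3 (edgeR adjusted p = 0.0733) was left out.

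Of 21 further subtype markers 19 could be tested, and 6 were called higher and 2 lower at P8 in Kir2.1, with a median of 0.52, against the 7.93% and 8.73% of all genes. The 8 calls fell to 5 without Kir2.1 P4 replicate 2 and to 4 without any one of the other 5 Kir2.1 libraries, where 9.76% to 12% of all genes were called over the 6 fits. Scgn, a calcium-binding protein of some cone bipolar types, had 0, 0 and 7 counts at P4 and 338, 341 and 283 at P8 (7.14, edgeR adjusted p = 0.00126). The fitted size depends on the prior count. Without Kir2.1 P4 replicate 3, which held the 7 counts, Scgn was at least 116-fold higher at P8, against a floor of 3 counts in each remaining P4 library. Neto1, a kainate receptor auxiliary subunit, rose by 2.21 (edgeR adjusted p = 0.00079). Cabp2 was higher by 2.95 (edgeR adjusted p = 0.0261), a call lost without Kir2.1 P4 replicate 2 or 3 or any one P8 library (edgeR adjusted p = 0.06 to 0.0858). The 2 genes called lower, Lrrtm1 (-1.14, edgeR adjusted p = 0.00296) and Nnat (-0.70, edgeR adjusted p = 0.0309), were named after their values were seen, and the Nnat call was lost when Kir2.1 P4 replicate 1 or 3, or P8 replicate 2 or 3, was left out (edgeR adjusted p = 0.0751 to 0.116). In wild type 0 were called higher and 1 lower, near the 3.58% of all genes called lower. This was Slitrk5 (-0.79, edgeR adjusted p = 0.0413), a call lost without wild-type P4 replicate 1, P8 replicate 2 or P8 replicate 3 (edgeR adjusted p = 0.622, 0.0734 and 0.0916). Over the fits without 1 library 0 to 5 of these markers and 0.823% to 7.19% of all genes were called in wild type.

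Between genotypes, 0 genes of the 3 lists were called at either age by edgeR with all libraries. At P4, DESeq2 called 0.225% of all genes and 2 cascade genes lower in Kir2.1, Grm6 (-6.86, adjusted p = 0.0491) and Trpm1 (-5.77, adjusted p = 0.00347). With wild-type replicate 2 as the only wild-type P4 library, edgeR called 6 genes in all (0.0303%), of which 3 were cascade genes lower in Kir2.1, Grm6 (-7.76, edgeR adjusted p = 0.00293), Trpm1 (-6.69, edgeR adjusted p = 0.0145) and Gpr179 (-2.71, edgeR adjusted p = 0.00445). Without that library 0 were called at P4. With no filter on low counts edgeR called 6 cascade genes, 3 regulators and 2 subtype markers at P4 (0.928% of all genes). At P8 it called 0, 2 and 2 (1.22% of all genes). These calls are not read as support, since that fit gave Vsx1 at P4 an edgeR adjusted p of 1.67e-37 on wild-type counts of 4 and 222. At P8, Pcdh17, a protocadherin among the subtype markers, was called lower without wild-type replicate 3 (-0.57, edgeR adjusted p = 0.0408), as 1 of 219 genes (1.21%) called in that fit. Gpr179 and Pcdh17 were named after their values were seen.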

How the data were processed

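RNA-seq was done on 11 mouse retinal libraries. The authors deposited a table of whole-number counts per Ensembl gene for each library. Per the submitters' processing notes, the tools named were cutadapt 1.18, STAR 2.5.0c, HTSeq 0.6.1, SAMtools 1.9, bedtools 2.26.0 and DESeq2, with mm10; strand and annotation are not given in the sources used here. The authors also deposited a genotype table per age which, per the file headers, holds a mean normalized count (a signal), a log2 fold change with its SE, a statistic (a score) and a p-value, raw and adjusted. Values from these tables are named as the authors' where given.

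Lines of the count tables that name no gene (74.6% to 79.8% of records) were left out. Counts that passed filterByExpr were scaled by TMM and fitted with edgeR 4.0.16 (quasi-likelihood, R 4.3.3) as 4 group means over all 11 libraries. p-values were adjusted by Benjamini-Hochberg over 18188 genes, with a threshold of 0.05, and the script was tested on simulated data. Log2 fold changes of edgeR are given with an SE, taken as the absolute log2 fold change divided by the square root of the quasi-likelihood F statistic. For genes near 0 counts this SE is only a rough guide. Alternatives were RLE scaling, no filter, DESeq2 1.42.0, voom with quality weights in limma 3.58.1, only the libraries compared, a replicate block, and leaving out each library. Exact permutation tests used log2(CPM + 0.5).

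The members and gene lists were chosen with earlier results of these data known. Named from the further lists, in each age comparison, were up to 3 genes per list with the largest absolute fold change among those called with a mean of at least 1 CPM, and Otx2, Grm6 and Trpm1; some results under this rule are not reported here. A gene with at most 3 counts in every library of a group is given as a bound against 3 counts. Of 47069 identifiers 46488 had a symbol. Genes were located in GENCODE M21 (GRCm38), and promoters came from RefSeq (GRCm38.p6), which held 7 of the 9 members.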

Additional observations from a re-analysis of the deposited data

How the results depend on the processing

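In Kir2.1, 6 to 8 of the 9 genes were called between ages under every alternative, 6 in all 6 fits without 1 library, and no fold change of a member changed sign. Of all genes 21.7% were called with DESeq2 (7 members), 10% with no filter (8), 25.8% with only the libraries compared (8) and 23.6% with voom (8), against 16.7% (6). The number of all genes called there fell to 1764 without Kir2.1 P4 replicate 1, 2012 without P8 replicate 2 and 1841 without P8 replicate 3, with a range of 1764 to 2169 over these fits. In wild type, DESeq2 called 1580 genes and 5 members between ages, no filter on low counts 2058 and 7, only the libraries compared 113 and 0, and voom 964 and 4. Leaving out each library gave 163 to 1338 genes and 0 to 5 members. For genotype at P4, DESeq2 called 33 genes and 1 member, no filter 339 and 4, and the fits without 1 library 0 to 6 genes and 0 to 1 member. For genotype at P8, DESeq2 called 3 genes, no filter 447 and the fits without 1 library 0 to 219. The interaction passed for 136 genes and 3 members with no filter, and for 0 to 1 gene without 1 library. Where fewer samples were fitted, calls could be lost for that reason; the cause of the other moves was not tested.

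Fold changes of members changed sign only in fits without 1 library. At P4 the ranges over these fits were -0.093 to 0.17 for Bhlhe22, -7.31 to 3.50 for Bhlhe23 (fitted without Kir2.1 replicate 2 against libraries at 0, where it was at least 6.40-fold lower against a floor of 3 counts, and without wild-type replicate 2), -0.70 to 0.21 for Cabp5, -1.61 to 0.16 for Grik1, -0.41 to 0.066 for Prdm8, -0.59 to 0.073 for Prkca and -4.78 to 0.96 for Vsx1. At P8 they were -0.22 to 0.82 for Cabp5, -0.33 to 0.16 for Grik1, -0.27 to 0.061 for Prdm8, -0.015 to 0.45 for Prkca and -0.26 to 0.53 for Vsx1. For the interaction they were -3.12 to 7.69 for Bhlhe23 (fitted from the same libraries at 0), -0.23 to 1.53 for Grik1, -1.12 to 0.18 for Lhx4, -0.16 to 0.31 for Prdm8 and -0.92 to 4.82 for Vsx1. RLE scaling changed no member's call. Of the further regulators, subtype markers and cascade genes, DESeq2 called 9, 5 and 4 between ages in wild type (10.3% of all genes), no filter 10, 6 and 8 (5.63%), and only the libraries compared 0 of each (0.666%).

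The labels name no batch for samples with the same replicate number, and their deviations from the group means correlated at -0.076 to 0.139. In the genotype comparison at P8, replicates 2 and 3 did not correlate best with their own number. In the other comparisons each sample with a counterpart did. Whether samples with the same number share a batch was not tested. With the replicate block, 7 members and 2929 genes (16.1%) were called between ages in Kir2.1. In wild type it was 2 members and 558 genes (3.07%), and 0 of each in the genotype comparisons and the interaction. In wild type, 0 of the 14 further regulators were called higher and 2 lower with the block. There Lhx3 (edgeR adjusted p = 0.058), Neurod4 (0.112), Irx5 (0.0748) and the subtype marker Slitrk5 (0.0907) were not called. In Kir2.1 the subtype marker Cabp2 was not called between ages with the block (2.91, edgeR adjusted p = 0.0502).

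Vsx1, Bhlhe23, Grm6 and Trpm1 had between 0 and 20 counts in 4 of the 5 P4 libraries, so the size of their age change in Kir2.1 is set by few reads at P4; in wild type and between genotypes at P4 it rests on wild-type P4 replicate 2.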
